A study of Mus musculus with 16 samples.

Results

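The comparison described here is that of 8 brain libraries from mice given CFA: 4 labelled RGS4 KO, numbered 13 to 16, and 4 labelled wild type (WT), numbered 9 to 12. They are the CFA libraries among the 16 of the series, chosen by their genotype and treatment labels, and every gene that passed a filter on low counts was compared, which left 18350 of 38924 gene identifiers. The other 8 libraries, 4 WT and 4 labelled RGS4 KO without CFA (naive, numbers 1 to 8), were used to estimate the spread and to set the genotype difference after CFA beside that in naive mice.

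According to the sources used here, tissue was punched from the ventral posterolateral nucleus of the thalamus on both sides. Each library pooled 4 punches of 12 gauge from 2 mice, so a library averages its animals. The series describes a floxed Rgs4 line in which an adeno-associated viral vector delivered Cre recombinase, while the sample labels give the genotype only as RGS4 KO. Whether WT mice received a virus, how much CFA was given and how long before tissue was taken were not given in the sources used here. CFA is not spelled out in the labels either. The abbreviation usually means complete Freund's adjuvant, an oil emulsion injected into a paw to cause lasting inflammatory pain. Sex is labelled female for all samples, the protocol names male mice, and Xist lay between 559.7 and 750.1 CPM (the usual per-library rate, counts relative to the scaled library total) in every library.

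RGS4 is a regulator of G protein signalling: it speeds the hydrolysis of GTP by Gi/o and Gq alpha subunits and so shortens signals from opioid, muscarinic, monoamine and metabotropic glutamate receptors. The ventral posterolateral nucleus passes touch and pain signals from the body to the somatosensory cortex. Its relay neurons are glutamatergic and project to the cortex, so transcripts of those receptors and of the G proteins behind them are the ones in which a change of RGS4 signalling might be looked for.

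The CFA libraries held from 42249456 to 53907963 gene counts in WT 9 to 12 and from 24436765 to 78773967 in KO-labelled 13 to 16, with KO-labelled 15 the shallowest and KO-labelled 13 the deepest. Between replicates, chi-square over its degrees of freedom lay from 3.69 to 10.9, so none repeated another within counting error, and the common biological coefficient of variation was 6.1%. On the first principal component, which held 30.5% of the variance among the 8 libraries, WT scores ran from -17.5 to -13.6 and KO-labelled scores from 11.3 to 22.4. Members of the thalamic relay list were present in all 8: the vesicular glutamate transporter Slc17a6 lay between 432 and 516 CPM, and the transcription factor Tcf7l2 between 114 and 165 CPM. Their levels alone do not show that the named nucleus was sampled. Tph2, which makes serotonin and marks raphe neurons of the brainstem, was also present. It ran from 58.9 CPM in WT 10 to 431 CPM in KO-labelled 16 and thus varied far more between libraries than the relay markers. Cartpt and Ucn of the midbrain and Rln3 of the brainstem, given further on, were counted as well. The libraries thus hold markers of regions outside the named nucleus, and where the punches fell was not tested. With bulk tissue, fewer cells of a type and less RNA per cell cannot be told apart. Per-library values below follow the order of the library numbers, 9 to 12 and then 13 to 16, and a ratio is the fitted KO-labelled to WT ratio after CFA unless the naive one is named.

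Rgs4 itself was not called between the labels. The 4 WT libraries held 96.8, 87.6, 91.9 and 81.1 CPM and the 4 KO-labelled libraries 77.5, 82.2, 86.4 and 90.2 CPM. The groups overlapped: KO-labelled 16 lay above WT 10 and WT 12. The ratio was 0.939 (95% interval 0.871 to 1.01, adjusted p = 0.519), and an exact two-sided permutation test of the 8 values gave p = 0.229. In naive libraries Rgs4 averaged 80.9 ± 3.66 CPM (SD, n = 4) in WT and 81.3 ± 2.74 CPM (n = 4) in KO-labelled mice. The expression of the targeted gene therefore does not separate the libraries by label, and "KO-labelled" is used throughout in that sense; counts over the whole gene do not show whether part of it was deleted.

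The label nonetheless separated many other transcripts. After CFA, 294 genes were called at an adjusted p under 0.05 (1.6% of those tested), of which 119 were higher (0.649%) and 175 lower (0.954%) in the KO-labelled libraries. The median log2 ratio over all tested genes was -0.001. Many called differences were small: 84 were under 1.2-fold and 66 over 2-fold, 21 of the latter upward and 45 downward. The median size was 0.375 on the log2 scale among the higher genes and 0.437 among the lower ones. In 111 of the 119 higher and 169 of the 175 lower genes the 4 KO-labelled libraries did not overlap the 4 WT ones, against 8.03% of all tested genes without overlap. The calls rest on the same libraries, so this lack of overlap largely follows from them and is no separate support. It was also a condition for naming the largest rises and falls. Leaving out KO-labelled 16 reduced the calls to 195, with 78 of them higher, and 150 of the 294 were called in each of the 8 fits that left out 1 CFA library. DESeq2 called 465 of the 18350 tested genes (195 higher, 270 lower), 286 of them shared. With a score of oculomotor marker genes, described further on, as a covariate, 154 genes were called (68 higher, 86 lower), 122 of them shared. That score ran from 0.674 to 1.59 in WT and from -0.596 to 0.37 in KO-labelled CFA libraries, without overlap. The fit therefore cannot fully separate score from label, and a call lost in it can also reflect lost precision.

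**Figure D1:**
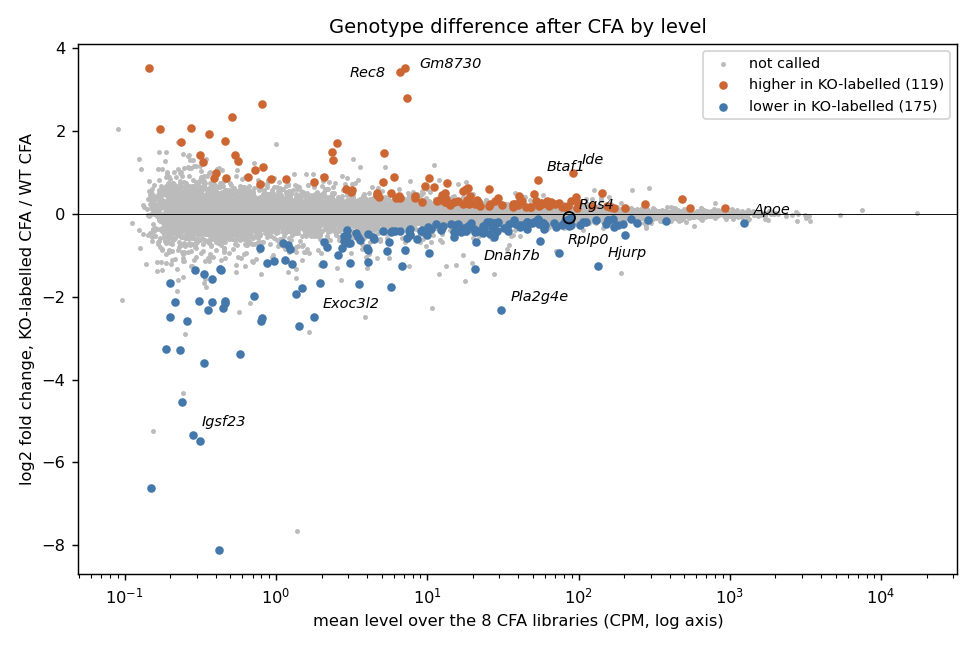
Each point is a tested gene, with its mean level over the 8 CFA libraries (CPM, log axis) against its log2 KO-labelled to WT ratio; orange and blue points are the 119 higher and 175 lower genes and grey points were not called. Rgs4, circled, lies in the grey band, while Ide, Btaf1 and Hjurp stand clear of it at levels where most genes scarcely differ.

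The called gene with the lowest p was Ide, which encodes insulin-degrading enzyme, a zinc metallopeptidase that cleaves insulin and amyloid beta. WT libraries held 62.2, 59.6, 63.8 and 59.9 CPM and KO-labelled libraries 122, 125, 122 and 117 CPM. The KO-labelled values lay close together, all far above WT, and the ratio was 1.98 (95% interval 1.89 to 2.07, adjusted p = 7e-14). Ide lies at chr19:37268743-37337852 on the minus strand (mm10). Of the 10 tested members of its list of secreted and insulin-degrading metallopeptidases it was the only one called (10%, against 1.6% of all tested genes), it alone had an unadjusted p under 0.05, and the list's median log2 ratio was -0.02.

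Btaf1, whose product removes the TATA-binding protein from DNA, lies in the same stretch of chromosome 19 and rose as evenly. Its levels were 38.1, 39.9, 39.4 and 38.4 CPM in WT and 66.4, 69.5, 72.1 and 66.1 CPM in KO-labelled libraries, a ratio of 1.76 (adjusted p = 3.28e-11). Fgfbp3, which encodes a carrier of fibroblast growth factors, rose from 3.79 ± 0.257 to 6.45 ± 0.234 CPM (SD, n = 4 each; ratio 1.7, adjusted p = 5.58e-06). Noc3l, a ribosome assembly factor, fell from 26.5 ± 1.33 to 19.7 ± 0.81 CPM (ratio 0.739, adjusted p = 6.8e-06). In naive libraries the ratios of these 4 neighbours were 2.07 for Ide, 1.77 for Btaf1, 1.91 for Fgfbp3 and 0.86 for Noc3l, all in the same directions and all called.

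Hjurp, the chaperone that loads the centromeric histone CENP-A, showed the lowest p among the falls. WT libraries held 194, 186, 191 and 190 CPM against 73.9, 81.6, 83.1 and 79.3 CPM in KO-labelled ones, a ratio of 0.417 (95% interval 0.381 to 0.456, adjusted p = 1.02e-09). All 4 KO-labelled values lay far below the lowest WT value. Dnah7b, an axonemal dynein heavy chain of motile cilia, fell from 30.6, 28.1, 31 and 29 CPM to 14.6, 10.8, 10.7 and 10 CPM (ratio 0.395, adjusted p = 1.09e-07). It shares 63.5% of its 31-base words with other transcripts, chiefly its paralog Dnah7c, so its count is uncertain. The other 16 tested axonemal dyneins were not called (1 of 17 called, 5.88%, against 1.6% of all tested genes), 3 of the 17 had an unadjusted p under 0.05, and the median of the list was 0.07 on the log2 scale.

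**Figure D2:**
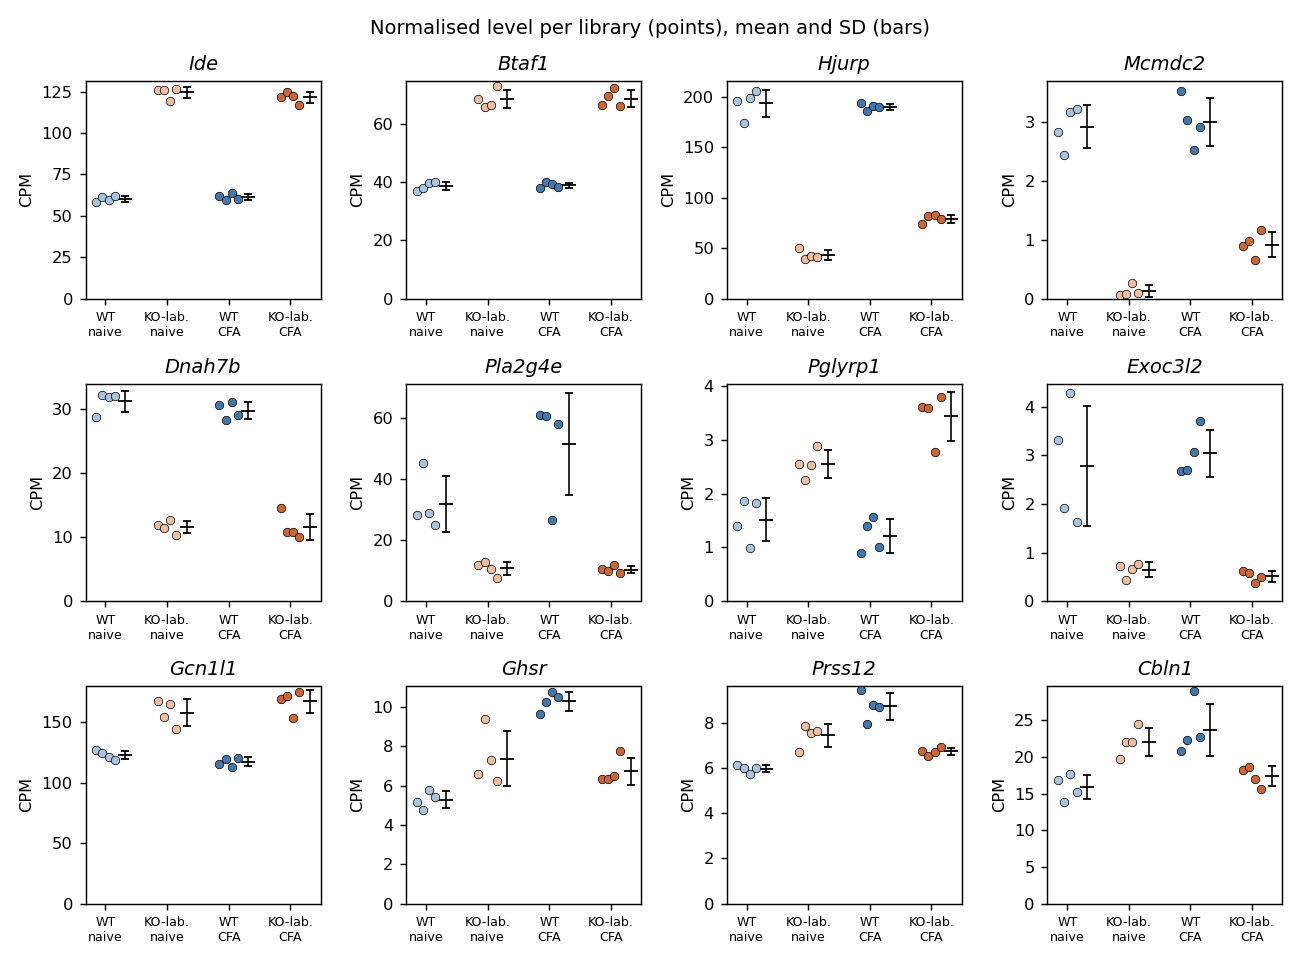
CPM per library for 12 genes in the 4 groups (WT naive, KO-labelled naive, WT CFA, KO-labelled CFA; 4 points each), with group mean and SD as bars and axes from 0. In Ide, Btaf1, Dnah7b and Gcn1l1 the label difference looks alike with and without CFA, in Hjurp and Mcmdc2 the KO-labelled CFA libraries lie above the KO-labelled naive ones, and in Ghsr, Prss12 and Cbln1 the order of the genotypes turns.

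Called genes were not spread evenly over the genome. Of 455 windows of 5 Mb with at least 10 tested genes, 128 held a call, and in 5 at least 20% of the tested genes were called, against 1.6% over all. These 5 windows held 44 of the 290 called genes that could be placed (15.2%) and 181 tested genes. The fullest ran from 15 to 20 Mb on chromosome 7, where 27 of 99 tested genes were called (27.3%), 9 higher and 18 lower. Of those 27, 19 were also called in the same direction in naive libraries. The next were 35 to 40 Mb on chromosome 19 with 6 of 28 (21.4%), 5 to 10 Mb on chromosome 1 with 4 of 19 (21.1%), 40 to 45 Mb on chromosome 18 with 4 of 20 and 10 to 15 Mb on chromosome 1 with 3 of 15. Rgs4 sits elsewhere, at chr1:169741477-169747642, and of the 100 tested genes starting within 5 Mb of it 0 were called by edgeR and 0 by DESeq2, while 12 had an unadjusted p under 0.05 (12%, against 12.3% of all tested genes).

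**Figure D3:**
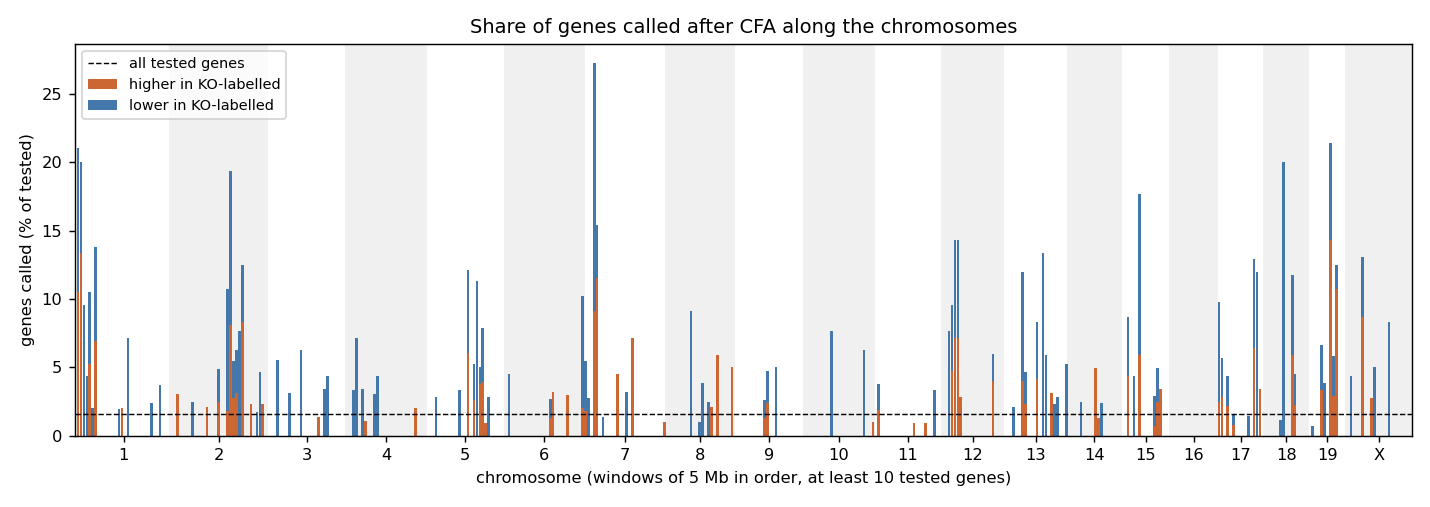
Share of tested genes called after CFA in each 5 Mb window with at least 10 tested genes, in chromosome order, split into genes higher (orange) and lower (blue) in KO-labelled libraries; the dashed line is the share over all tested genes, 1.6%. Tall bars stand at the start of chromosome 1 and on chromosomes 2, 7, 18 and 19, with both directions present in most of them.

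Within the chromosome 7 window, Pglyrp1 rose and Exoc3l2 fell. Pglyrp1 encodes a secreted peptidoglycan recognition protein of innate immunity, and its levels were 0.894, 1.4, 1.56 and 1.01 CPM in WT and 3.61, 3.59, 2.77 and 3.8 CPM in KO-labelled libraries (ratio 2.81, adjusted p = 4.3e-05). Exoc3l2, an exocyst-related gene, fell from 2.68, 2.71, 3.07 and 3.71 CPM to 0.623, 0.582, 0.367 and 0.491 CPM (ratio 0.179, adjusted p = 9.85e-05). Neither gene's groups overlapped. Igsf23, an immunoglobulin superfamily gene, was counted 30, 18, 31 and 26 times in WT and 2, 0, 0 and 0 times in KO-labelled libraries (adjusted p = 4e-05), that is, 105 counts against 2. Apoe, the main lipid carrier made by astrocytes, belongs to the same window and is expressed far above the filter: WT libraries held 1347, 1244, 1341 and 1442 CPM and KO-labelled ones 1128, 1089, 1242 and 1126 CPM. The highest KO-labelled value, in library 15, lay just under the lowest WT value, and the ratio was 0.853 (95% interval 0.798 to 0.912, adjusted p = 0.00993). Apoe was not called with the oculomotor score as a covariate (adjusted p = 0.0838), though its log2 ratio was -0.239 with the score and -0.229 without it.

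Called genes in the windows on chromosome 1 included Oprk1 and Trpa1, which are tied to pain signalling, beside others. Of the calls at 5 to 10 Mb 4 of 4, and of those at 10 to 15 Mb 2 of 3, were also called in the same direction in naive libraries. Oprk1 encodes the kappa opioid receptor, a Gi/o-coupled receptor for dynorphin, and rose slightly, from 23.9, 23.5, 23.2 and 24.4 CPM to 26.8, 27.6, 29.9 and 28.3 CPM (ratio 1.18, 95% interval 1.1 to 1.27, adjusted p = 0.0118). Trpa1, the irritant receptor channel best known from sensory neurons, was low and fell from 1.58, 1.46, 1.7 and 1.61 CPM to 0.788, 1.12, 0.693 and 0.929 CPM (ratio 0.56, adjusted p = 0.0063). No KO-labelled library overlapped WT for either gene. In naive libraries the ratio was 1.26 for Oprk1 (adjusted p = 0.00133) and 0.64 for Trpa1 (adjusted p = 0.112). With the oculomotor score as a covariate neither was called, with adjusted p-values of 0.0969 for Oprk1 and 0.272 for Trpa1. The log2 ratio of Oprk1 was 0.246 with the score and 0.241 without it. That of Trpa1 was -0.568 with the score and -0.835 without it. In the same windows Vxn, a neurogenesis factor, rose from 34.6 ± 0.914 to 46.3 ± 0.932 CPM (ratio 1.34, adjusted p = 5.19e-06) and Lactb2, a mitochondrial endoribonuclease, from 13.9 ± 0.405 to 20.5 ± 0.689 CPM (ratio 1.47, adjusted p = 4.09e-06). Adhfe1, a mitochondrial dehydrogenase of hydroxybutyrate, fell from 19.3 ± 0.507 to 14.3 ± 0.254 CPM (ratio 0.739, adjusted p = 9.59e-05). Vxn and Adhfe1 overlap another tested gene in their exons, and the kit does not mark strand, so their counts are uncertain.

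Copies of a ribosomal protein gene were among the steepest rises and are shown with their sequences, because so few letters tell them apart. Rplp0 encodes the stalk protein P0 of the large ribosomal subunit, and Gm8730 and Gm9625 are processed pseudogenes, intronless copies of its mRNA elsewhere in the genome. Along the 951 bases of the Rplp0 coding sequence they are 98.7% and 97.5% identical to it. The following 60 bases, read from the GENCODE M21 transcripts on mm10, are 1 stretch of that alignment; capitals mark the 5 positions that differ within the set. Rplp0 is from chr5:115560930-115560989 (plus strand, exon 3), Gm8730 from chr8:102865496-102865555 (minus strand) and Gm9625 from chr13:67810489-67810548 (plus strand).
Rplp0: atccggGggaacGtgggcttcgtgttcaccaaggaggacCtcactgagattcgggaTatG
Gm8730: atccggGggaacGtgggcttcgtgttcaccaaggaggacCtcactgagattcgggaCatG
Gm9625: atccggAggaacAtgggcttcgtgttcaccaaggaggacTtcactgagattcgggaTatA

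Rplp0 was counted at 96.6, 94.4, 97.2 and 101 CPM in WT and at 48.2, 52.1, 56.6 and 45.4 CPM in KO-labelled libraries (ratio 0.518, adjusted p = 2.7e-05). Gm8730 went the other way, from 1.44, 1.06, 1.12 and 0.99 CPM to 13.9, 14.8, 10.2 and 13.4 CPM (ratio 11.5, adjusted p = 3.67e-11), and so did Gm9625, from 1.98, 2.11, 1.7 and 1.66 CPM to 14.7, 13.8, 9.7 and 13.5 CPM (ratio 7, adjusted p = 3.28e-11). In all 3 the groups were far apart. The sum of the 3 was 100.3 ± 2.57 CPM in WT libraries and 76.6 ± 3.44 CPM in KO-labelled ones, so the sum also differed, by less than the single genes. Within this window of the gene, 1 of the 60 letters separates Gm8730 from Rplp0 and 4 separate Gm9625 from it. Whether reads of 1 gene were counted under another was not tested.

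Other sets of copies behaved in several ways. Rpl3, another large-subunit protein, rose from 254, 242, 244 and 262 CPM to 288, 304, 291 and 296 CPM (ratio 1.18, adjusted p = 0.00123), while its processed pseudogene Rpl3-ps1 fell from 33.2 ± 0.549 to 22.4 ± 1.02 CPM (ratio 0.677, adjusted p = 0.000543). A second processed pseudogene, Rpl3-ps2, was low and, like Rpl3, higher in KO-labelled libraries, at 0.323 ± 0.0329 CPM in WT and 0.619 ± 0.167 CPM (adjusted p = 0.0482). That call was kept in 6 alternative fits and lost in 17, including DESeq2 (0.0936) and every fit that left out a CFA library other than KO-labelled 14, with adjusted p-values up to 0.265. The sum of the 3 genes was 284 ± 9.32 CPM in WT and 317.9 ± 7.84 CPM in KO-labelled libraries, without overlap. Eif3j2, an intronless relative of the translation initiation factor gene Eif3j1 that shares 94% of its 31-base words with it, fell from 6.12, 6.07, 4.01 and 6.12 CPM to 2.36, 2.89, 2.08 and 2.61 CPM (ratio 0.45, adjusted p = 5.69e-05). Eif3j1 averaged 16.6 ± 1.38 CPM in WT and 19.5 ± 1.14 CPM in KO-labelled libraries and was not called (adjusted p = 0.106, and 0.0441 without WT 11). Their sum was 22.15 ± 0.666 CPM in WT and 22.03 ± 1.23 CPM in KO-labelled libraries. Spg11, mutated in a hereditary spastic paraplegia, rose from 33.8 ± 2.13 to 39.8 ± 1.11 CPM (ratio 1.17, adjusted p = 0.00276). Its partial copy Gm3650 dropped from 33, 40, 13 and 30 counts to 2, 0, 0 and 0 counts (adjusted p = 0.000204). Spg11 overlaps Eif3j1 in its exons, so the counts of both are uncertain. Gm3650 and Eif3j2 lie side by side on chromosome 18, so these sets of copies are not separate places. Zfp93, a zinc finger gene, rose from 5.71 ± 0.32 to 7.52 ± 0.344 CPM (ratio 1.32, adjusted p = 0.0157), and its pseudogene Gm11677 went from 16, 15, 12 and 13 counts to 0 in all 4 KO-labelled libraries. The call of Zfp93 was lost without WT 10 (adjusted p = 0.0583), WT 12 (0.054) or KO-labelled 16 (0.0697), with libraries thinned to equal depth (0.186) and with the oculomotor score (0.084). Set against a floor of 3 counts over the group (0.0162 CPM), Gm11677 was at least 18-fold lower.

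In the Gcn1l1 set gene and copy were both higher. Gcn1l1 encodes the ribosome-bound activator of the amino acid starvation kinase GCN2. It went from 115, 120, 113 and 121 CPM to 169, 171, 153 and 175 CPM (ratio 1.43, adjusted p = 1.08e-06), and the copy Gm13123 rose from 0.176 ± 0.0837 to 0.845 ± 0.231 CPM (adjusted p = 0.000203). Over all calls, 57 of 290 genes with a transcript (19.7%) share at least 10% of their 31-base words with other places, 55 overlap the exons of another tested gene, and 184 do neither. Pseudogenes were called in 27 of 888 tested (3.04%), against 1.56% of protein-coding genes. Values of single copies are therefore uncertain, while Ide, Btaf1, Fgfbp3 and Hjurp share 0% of their 31-base words with another place, rounded to 1 decimal.

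Among the largest rises of genes without close copies were meiosis genes. Rec8, a meiotic cohesin, was at 0.588, 2.05, 1.27 and 0.437 CPM in WT and 6.28, 16.4, 4.12 and 21.5 CPM in KO-labelled libraries (ratio 10.8, 95% interval 3.8 to 30.6, adjusted p = 0.0263). The groups did not overlap, but the KO-labelled values spread widely, and the call was lost without WT 9 (adjusted p = 0.0809), WT 11 (0.0655), WT 12 (0.0822), KO-labelled 14 (0.0714) or KO-labelled 16 (0.0778) and in a fit of the 8 CFA libraries alone (0.106). Ccnb1ip1, which acts in meiotic crossing over, rose from 0.209 ± 0.23 to 1.4 ± 0.34 CPM (ratio 6.28, adjusted p = 0.01, and 0.0856 in the 8 libraries alone). Mcmdc2, a meiotic helicase-like protein, fell from 3.53, 3.03, 2.53 and 2.92 CPM to 0.89, 0.979, 0.652 and 1.16 CPM (ratio 0.313, adjusted p = 4.09e-06), and Catspere2, related to a sperm calcium channel subunit, from 2.85 ± 0.222 to 1.24 ± 0.163 CPM (ratio 0.433, adjusted p = 9.59e-05). With Hjurp, 5 of the 24 tested centromere, meiosis and sperm genes were called (20.8%, against 1.6% of all tested genes), 2 higher and 3 lower, and 8 had an unadjusted p under 0.05. The list was written with earlier results of these data known, and its count is a description. Mcmdc2 overlaps Snhg6 in its exons, and Catspere2 shares 31.1% of its words with Catspere1.

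Pla2g4e, a calcium-dependent acyltransferase of the phospholipase A2 family that makes precursors of endocannabinoids, had the largest fall among genes above 10 CPM in WT. The levels were 60.9, 60.6, 26.5 and 58 CPM in WT and 10.5, 9.83, 11.7 and 9.35 CPM in KO-labelled libraries (ratio 0.2, 95% interval 0.131 to 0.306, adjusted p = 0.000652). WT 11 stood at less than the other WT libraries, yet above all KO-labelled ones. The same library was also the lowest WT value for Eif3j2 and Gm3650. Fam227b fell from 2.15 ± 0.851 to 0.545 ± 0.0697 CPM (ratio 0.263, adjusted p = 0.000223), and overlaps Galk2. Pdzd7, a scaffold of hair cell stereocilia that overlaps Lzts2, rose from 7.24 ± 1.9 to 13.2 ± 0.57 CPM (ratio 1.81, adjusted p = 0.00129). The noncoding RNA Pantr1 rose from 9.72, 10.8, 9.3 and 10.4 CPM to 15.1, 17.1, 18.4 and 17.4 CPM (ratio 1.69, adjusted p = 1.93e-06).

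At the other end of the range, several of the most abundant called genes differed by little but with tight libraries. Ndn encodes necdin, an imprinted growth suppressor of neurons, and rose from 445, 390, 430 and 433 CPM to 536, 531, 548 and 572 CPM (ratio 1.29, adjusted p = 0.00398). Dzank1, an ankyrin repeat and zinc ribbon gene, was at 854, 896, 895 and 900 CPM in WT and 957, 974, 1025 and 974 CPM in KO-labelled libraries (ratio 1.11, adjusted p = 0.00527). Lonrf2, a ring finger ubiquitin ligase, fell from 402, 405, 395 and 402 CPM to 347, 356, 372 and 362 CPM (ratio 0.896, adjusted p = 0.0101). None of the 3 showed overlap; with the oculomotor score as a covariate the adjusted p was 0.163 for Dzank1 and 0.146 for Lonrf2, and Ndn was still called.

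Genes of RGS4's own pathway gave 1 call. None of the 17 tested RGS family members was called by edgeR or DESeq2, and 1 had an unadjusted p under 0.05, with log2 ratios from -0.09, that of Rgs4, to 0.21 and a median of 0.03. The lowest p in the family belonged to Rgs11, a partner of the Gbeta5 subunit, at 29.8 ± 2.13 CPM in WT and 33.2 ± 2.38 CPM in KO-labelled libraries (adjusted p = 0.382). Of 41 tested G protein subunits, adenylyl cyclases and beta phospholipases C, 1 was called (2.44%, against 1.6% of all tested genes) and 3 had an unadjusted p under 0.05 (7.32%, against 12.3%): Adcy2, a cyclase that Gbeta-gamma subunits stimulate, rose from 110, 117, 119 and 110 CPM to 137, 126, 131 and 128 CPM (ratio 1.15, 95% interval 1.09 to 1.21, adjusted p = 0.00631, and 0.116 with the oculomotor score). Its groups did not overlap, while the median of the list was -0.005 on the log2 scale.

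Receptors that signal through those proteins gave 1 call too. Among 34 tested opioid, monoamine, cannabinoid and muscarinic receptors Oprk1 was the single call by edgeR and by DESeq2 (2.94%, against 1.6% of all tested genes), 8 had an unadjusted p under 0.05 (23.5%, against 12.3%), and the list median was 0.01. None of the 10 tested metabotropic glutamate receptors and Homer scaffolds was called by either tool (median -0.002; 1 with an unadjusted p under 0.05). Homer3, which had the lowest p there, averaged 5.11 ± 0.237 CPM in WT and 4.37 ± 0.44 CPM in KO-labelled libraries (adjusted p = 0.322). Neither the 18 ionotropic glutamate receptor subunits (median 0.01; 2 with an unadjusted p under 0.05) nor the 21 genes of GABA synthesis, transport and reception (median -0.003; 0 with such a p) gave a call by edgeR or DESeq2.

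Among 23 tested TRP channels, cation channels of many sensory cells, Trpa1 was lower and Pkd2l1 higher (8.7% called, against 1.6% of all tested genes), DESeq2 called Trpv4 besides, and 5 had an unadjusted p under 0.05 (21.7%, against 12.3%). Pkd2l1, a channel of neurons contacting cerebrospinal fluid, went from 2.21, 2.4, 3.73 and 2.79 CPM to 11.5, 7.92, 5.02 and 5.78 CPM (ratio 2.78, adjusted p = 0.00903). Pkd2l1 missed the threshold in the 8 libraries alone (adjusted p = 0.0762) and with the score (0.0716).

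Gene groups tied to pain, activity and inflammation gave 0 or 1 edgeR call each between the labels after CFA, against 1.6% of all tested genes called and 12.3% at an unadjusted p under 0.05. DESeq2 called 465 of all 18350 tested genes. The 34 immediate early genes, which report recent neuronal activity, gave 0 calls by edgeR and 1 by DESeq2, Nr4a2, with 2 at an unadjusted p under 0.05 and a median of -0.03. Their summed level ran from 399.7 to 428.4 CPM in WT and from 390.6 to 454.3 CPM in KO-labelled libraries, overlapping. None of the 29 tested neuropeptide precursors was called by edgeR, 2 were called by DESeq2 (Rln3 and Calca), and 9 had an unadjusted p under 0.05 (31%). Rln3, the relaxin family peptide of the nucleus incertus in the brainstem, came nearest, at 22.2, 29.3, 17.6 and 22 CPM in WT and 11, 11.2, 10.3 and 13.1 CPM in KO-labelled libraries (ratio 0.5, adjusted p = 0.0626). Its groups did not overlap, and it passed the threshold in the 8 libraries alone (adjusted p = 0.0188), without naive WT 3 (0.043) or naive KO-labelled 5 (0.0331), and with DESeq2 (0.0015). Of 12 neurotrophins and receptors, 3 had an unadjusted p under 0.05 (25%) and 1 was called (8.33%). This was Ngfr, the low-affinity neurotrophin receptor, at an adjusted p of 0.0499, with 2.66, 2, 2.89 and 2.85 CPM in WT and 4.07, 3.52, 3.22 and 4.41 CPM in KO-labelled libraries (ratio 1.48). That call was lost in 17 of 24 alternative fits, including every one that left out a CFA library other than KO-labelled 15, with adjusted p-values up to 0.21. Pglyrp1 was the 1 edgeR call among 32 inflammation, interferon and complement genes (3.12%; median 0.003). DESeq2 called C4b and Oasl2 besides, and 8 of the 32 had an unadjusted p under 0.05 (25%). Pla2g4e was the 1 edgeR call among 29 phospholipase A2 and eicosanoid genes (3.45%; median -0.04), of which DESeq2 called Pla2g4b besides and 6 had such a p (20.7%). Angptl4, a lipase inhibitor induced by glucocorticoids and fasting, was the 1 call of 17 glucocorticoid responsive genes (5.88%; 3 with such a p) and fell from 3.92 ± 0.151 to 2.86 ± 0.233 CPM (ratio 0.731, adjusted p = 0.0144). Without WT 10 its adjusted p was 0.0507, without KO-labelled 14 it was 0.0592, and with the score 0.157.

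**Figure D4:**
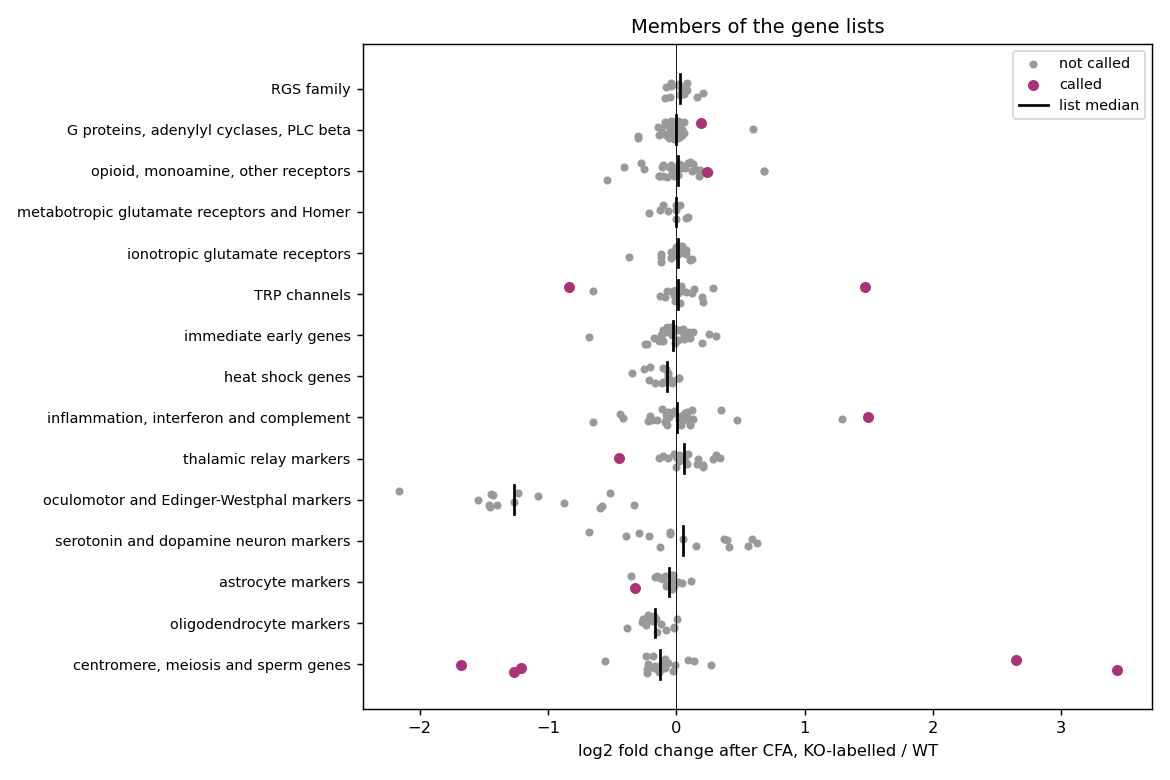
Each point is a tested member of 1 of 15 gene lists, placed by its log2 KO-labelled to WT ratio after CFA; purple points were called and black bars are list medians. Receptor, G protein and glutamate lists sit around 0, the oculomotor and Edinger-Westphal list lies wholly below 0 without a called member, and the centromere, meiosis and sperm list has calls at both ends.

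Markers of the oculomotor and Edinger-Westphal nuclei of the midbrain gave no call by edgeR. Their median ratio lay below 1 after CFA and above 1 in naive libraries. All 15 tested oculomotor and Edinger-Westphal markers had ratios below 1 after CFA, with a median of -1.27 on the log2 scale against 0.65 in naive libraries, and 9 of the 15 had no overlap between groups, against 4.25% of all tested genes with KO-labelled libraries below. After CFA 5 of the 15 were called by DESeq2, against 465 of all 18350 tested genes. An unadjusted p under 0.05 was found in 12 of the 15 (80%, against 12.3% of all tested genes). Cartpt, a peptide of the Edinger-Westphal nucleus, was at 303, 228, 291 and 285 CPM in WT and 50.9, 123, 72 and 166 CPM in KO-labelled libraries (ratio 0.371, adjusted p = 0.31). The summed level of the list ran from 633.2 to 843.8 CPM in WT and from 327.1 to 512 CPM in KO-labelled libraries. Ucn, the urocortin of the same cells, was at 18.6, 13.9, 17.8 and 19.9 CPM and at 3.11, 6.62, 3.63 and 12.7 CPM (adjusted p = 0.382). KO-labelled 16 came closest to WT for both peptides. In naive libraries Ucn averaged 1.8 ± 1.48 CPM in WT and 7.99 ± 7.07 CPM in KO-labelled mice, so the order of the means was the opposite one there. The marker score of naive KO-labelled 5 to 8 was -1.25, 0.595, 0.78 and -0.887, against -0.849 to -0.585 in naive WT libraries. KO-labelled 5 and 8 thus lay below every naive WT library, and 0 members of the list were called in naive libraries. The part of this difference in the results given here was not tested beyond the fit with the marker score as a covariate, in which 122 of the 294 genes were still called; Ide, Btaf1, Fgfbp3, Hjurp, Dnah7b, Gcn1l1, Rplp0, Exoc3l2 and Pla2g4e were among them.

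Markers of other cell types gave 0 or 1 edgeR call each, against 1.6% of all tested genes. The summed level of 21 thalamic relay markers was 1490 to 1642 CPM in WT and 1475 to 1708 CPM in KO-labelled libraries, with a list median of 0.06; 1 of the 21 was called (4.76%) and 3 had an unadjusted p under 0.05. The summed level of astrocyte markers was 6995, 7070, 7000 and 7125 CPM in WT libraries, while the KO-labelled ones held 6627, 6755, 6797 and 6467 CPM, which did not overlap. The list median was -0.06 on the log2 scale, with members from -0.355 to 0.114. Of the 17, 1 was called (5.88%), with Slc1a2 called by DESeq2 besides and 5 at an unadjusted p under 0.05 (29.4%). Ntsr2, a neurotensin receptor of astrocytes, was the edgeR call and fell from 189, 182, 188 and 208 CPM to 171, 149, 159 and 135 CPM (ratio 0.802, adjusted p = 0.011, and 0.066 in the 8 libraries alone). Apoe, named above, fell beside these markers, and their part in its fall was not tested. Oligodendrocyte markers summed to between 9062 and 10300 CPM in WT and between 7533 and 10110 CPM in KO-labelled libraries, with KO-labelled 15 and 16 lowest. The 16 microglia and 17 endothelial and mural markers gave no call by edgeR or DESeq2, with medians of 0.07 and 0.05 and 3 and 1 members at an unadjusted p under 0.05. Sim1, a transcription factor of hypothalamic and some midbrain neurons, was the 1 call among 12 hypothalamus markers (8.33%; 4 with an unadjusted p under 0.05) and fell from 3.51, 3.25, 4.56 and 3.94 CPM to 2.28, 2.4, 2.12 and 2.5 CPM (ratio 0.611, adjusted p = 0.00398, and 0.167 with the oculomotor score).

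Without CFA the same labels differed in 266 genes (1.45%), 128 higher (0.698%) and 138 lower (0.752%). Of the 294 genes called after CFA, 119 were called in the same direction in naive libraries, 47 higher and 72 lower, which is 40.5% of the calls after CFA and 44.7% of those in naive libraries. These contrasts share no library, though they share 1 estimate of the spread. The naive count fell to 166 without WT 2, to 148 without WT 3, to 135 without KO-labelled 6 and to 169 without KO-labelled 8, and DESeq2 gave 459. The 175 genes not called in both had a median size of 0.374 after CFA and 0.167 in naive libraries, and 143 of them had the same sign in both. Being called after CFA and not in naive libraries is thus not a test that the difference depends on CFA.

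The test of that dependence, the interaction, called 12 genes (0.0654%), 9 of which were also called after CFA, all 9 as lower. DESeq2 called 87 and the fit with no low-count filter 31, and with the oculomotor score 36 were called. The count was 5 or 6 without WT CFA 11, KO-labelled CFA 13, 15 or 16, naive WT 4 or naive KO-labelled 6 or 8, while it was 25 without naive KO-labelled 5 and 27 without naive KO-labelled 7. In Hjurp and Mcmdc2 the deficit was smaller after CFA than without it. Hjurp averaged 43.2 ± 4.7 CPM in naive and 79.5 ± 4.03 CPM in CFA KO-labelled libraries, against 194 ± 13.5 and 190 ± 3.37 CPM in WT (interaction adjusted p = 0.000275). Mcmdc2 averaged 0.134 ± 0.0958 and 0.921 ± 0.212 CPM in KO-labelled and 2.93 ± 0.363 and 3.01 ± 0.41 CPM in WT libraries (interaction adjusted p = 0.000892). Both were called in all 23 alternative fits that gave an interaction.

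In Ghsr, Prss12, Cbln1, Pcdh9, Ndst4 and Slit3 the ratio lay above 1 in naive libraries and below 1 after CFA, and in Ghsr, Prss12 and Cbln1 both differences were called. Ghsr, the receptor of the hunger hormone ghrelin, was at 9.62, 10.2, 10.8 and 10.5 CPM in WT and 6.36, 6.36, 6.48 and 7.77 CPM in KO-labelled libraries after CFA (ratio 0.655, adjusted p = 0.00139). No library overlapped. In naive libraries it averaged 5.29 ± 0.427 CPM in WT and 7.37 ± 1.41 CPM in KO-labelled mice (ratio 1.38, adjusted p = 0.0349; interaction adjusted p = 0.00315). Prss12, which encodes neurotrypsin, a synaptic protease that cleaves agrin, was at 9.44, 7.95, 8.79 and 8.7 CPM in WT and 6.76, 6.55, 6.69 and 6.95 CPM in KO-labelled libraries (ratio 0.773, adjusted p = 0.00386), against a naive ratio of 1.24 (interaction adjusted p = 0.00435). Prss12 also missed the threshold in libraries thinned to equal depth (adjusted p = 0.067). Adjusted p-values of the difference after CFA with the oculomotor score were 0.0983 for Ghsr and 0.166 for Prss12, and those of the interaction 0.0518 and 0.0593.

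Cbln1, a secreted synapse organizer and the 1 call among 21 thalamic relay markers, was at 20.8, 22.3, 28.9 and 22.7 CPM in WT and 18.3, 18.7, 17 and 15.6 CPM in KO-labelled libraries (ratio 0.734, adjusted p = 0.0282), with a naive ratio of 1.38 and an interaction adjusted p of 0.0217. Its call after CFA was lost without WT 12 (0.0523), KO-labelled 13 (0.0585), KO-labelled 15 (0.0743) or KO-labelled 16 (0.105), in the 8 CFA libraries alone (0.0696), without the low-count filter (0.0757) and in thinned libraries (0.0702). Pcdh9, a protocadherin, fell from 155, 173, 171 and 159 CPM to 144, 148, 127 and 133 CPM (ratio 0.84, adjusted p = 0.0163; naive ratio 1.14, interaction 0.0377), and lost that call without WT 10 (0.0607), WT 11 (0.0523), KO-labelled 15 (0.0515) or KO-labelled 16 (0.0704). Ndst4, a heparan sulfate modifying enzyme, averaged 19.4 ± 1.91 and 15.1 ± 0.614 CPM (ratio 0.782, adjusted p = 0.00298; naive ratio 1.11, interaction 0.0377). Slit3, an axon guidance ligand that was named after its values were seen, averaged 17 ± 0.401 and 14.1 ± 0.98 CPM (ratio 0.83, adjusted p = 0.0263; naive ratio 1.17, interaction 0.0402). Its call after CFA was lost without WT 9 (0.07), WT 10 (0.0638), WT 12 (0.0653), KO-labelled 13 (0.0594), KO-labelled 15 (0.0832) or KO-labelled 16 (0.0824). With the oculomotor score none of these differences after CFA was called, at 0.163 for Cbln1, 0.119 for Pcdh9, 0.162 for Ndst4 and 0.366 for Slit3. The interactions of Ndst4, Pcdh9 and Slit3 were each called in 10 of the 23 alternative fits and that of Cbln1 in 16, and the interaction of Cbln1 had an adjusted p of 0.076 without naive WT 4. In these 6 genes the WT mean after CFA lay above the naive WT mean. The oculomotor score ran from 0.674 to 1.59 in WT libraries after CFA and from -0.849 to -0.585 in naive WT ones. Whether the 6 genes and the markers are linked was not tested beyond the fit with the score.

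**Figure D5:**
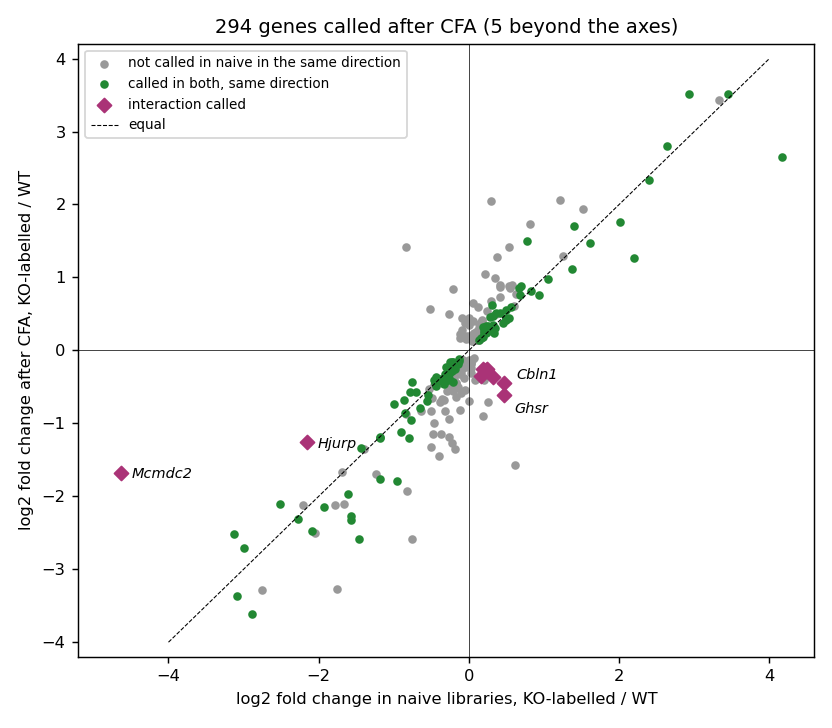
The 294 genes called after CFA, by their log2 KO-labelled to WT ratio in naive libraries (x axis) and after CFA (y axis), with 5 genes beyond the axes; the dashed line marks equal ratios. Green points, called in both in the same direction, lie along it, grey points were not called in naive libraries in the same direction, and purple diamonds are the 9 genes called in the interaction as well.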

How the data were processed

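Libraries of mRNA were prepared with a TruSeq version 2 kit, per the labels' protocols, and it keeps no strand information. Each deposited table from the authors holds raw counts by Ensembl gene. The submitters' processing notes name TopHat, DESeq2 and mm10. Software versions, annotation and counting mode were not given in the sources used here. The 5 summary lines that close each deposited table (38% to 39.9% of listed reads) were left out. GENCODE M21 gave symbols to 37607 identifiers and none to 1317.

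Counts were tested with edgeR 4.0.16 in R 4.3.3: a filterByExpr minimum count of 10 (99.961% of counts kept), TMM scaling, a robust quasi-likelihood fit of 4 group means over 16 libraries, and Benjamini-Hochberg adjustment over all 18350 genes, with calls at an adjusted p under 0.05. Every adjusted p is edgeR's unless DESeq2 (1.42.0) is named, and CPM are on TMM-scaled totals, as mean ± SD. Totals ran from 18057885 to 78773967 counts. Nothing says that the pools came from separate cohorts, so p-values measure the spread between these libraries. Exact permutation tests of 4 against 4 cannot go below p = 0.0286. The fit was tested on simulated data. Floors cover counting error only.

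Members, gene lists and tests were chosen with earlier results of these data known, and lists are described without a test. Named genes are the 15 largest rises and falls at 1 CPM or more without overlap, up to 4 called or 2 uncalled members by p from each list, Rgs4, up to 4 genes in each 5 Mb window with at least 10 tested genes and 20% called, and the 8 called genes first by interaction p, level or p; not all are named, and a gene that met the rule is not reported here. Copies (Spg11, Zfp93, Gm11677, Rpl3-ps1, Rpl3-ps2, Eif3j1, Gm13123), markers (Slc17a6, Tcf7l2, Tph2, Cartpt, Ucn), genes called by DESeq2 alone and Slit3 were partly or wholly chosen after their values were seen. The oculomotor score is the mean standardized log2 CPM of 15 marker genes. Alternatives were other scalings (RLE, upper quartile), other filters, DESeq2, the 8 CFA libraries alone, thinning to the shallowest library, that score as a covariate, and leaving out each library; leaving out naive libraries, and all alternatives for the naive and interaction counts, were added after the data were seen.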

Additional observations from a re-analysis of the deposited data

Results flagged for a closer look

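Single libraries stood apart from the other 3 of their group in 9 of the 125 group and gene combinations examined by Dixon's test at 95%, which flags about 1 in 20 by chance. WT 11 was low for Pla2g4e (26.5 CPM against 58 to 60.9), for Eif3j2 (4.01 against 6.07 to 6.12) and for Gm3650 (0.242 against 0.691 to 0.777). KO-labelled 13, the deepest library, held 0.0254 CPM of Igsf23 and 0.0254 CPM of Gm3650, 2 counts each, where the other 3 held 0. KO-labelled 16 was high for Zfp93 (8.03 CPM against 7.31 to 7.39) and for Ghsr (7.77 against 6.36 to 6.48), KO-labelled 15 was low for Ndst4 (14.2 against 15.3 to 15.5), and WT 9 was low for Dzank1 (854 against 895 to 900).

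The genotype difference after CFA differed from that in naive libraries, by the interaction test of edgeR, in 8 genes named in the text. The difference of the log2 ratios, after CFA minus naive, was 2.95 for Mcmdc2 and 0.894 for Hjurp, and it was -1.07 for Ghsr, -0.915 for Cbln1, -0.685 for Prss12, -0.51 for Ndst4, -0.495 for Slit3 and -0.434 for Pcdh9. The interaction adjusted p across 23 alternative fits reached at most 0.00842 for Hjurp and 0.00847 for Mcmdc2, 0.0518 for Ghsr and 0.0593 for Prss12, and up to 0.151 for the other 4.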

How the results depend on the processing

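RLE and upper quartile scaling, other filters, the 8 CFA libraries alone and thinning kept the count of genes called after CFA between 230 and 317, against 294. DESeq2 gave 465 (195 higher, 270 lower) and the oculomotor score as a covariate 154 (68 higher, 86 lower); the cause was not tested. Leaving out 1 library at a time gave 195 to 407 genes in all, the fewest without KO-labelled 16, and 78 to 172 higher ones. In naive libraries DESeq2 called 459 genes, and leaving out 1 library gave 135 to 296. The interaction count of 12 became 31 with no low-count filter, 87 with DESeq2 and 36 with the score, and 5 to 27 with 1 library left out. No log2 ratio of a named called gene changed sign. No paired analysis was possible because library numbers run from 1 to 16 and no number is shared between groups. Depth limits the 17 higher and 23 lower genes under 1 CPM in both groups, since the shallowest CFA library held 24436765 counts.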

Other observations

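Further gene groups were compared between the labels after CFA, where DESeq2 called 465 of all 18350 tested genes. Of 83 cytosolic ribosomal proteins only Rplp0 (lower) and Rpl3 (higher), described above, were called by edgeR (2.41%, against 1.6% of all tested genes), DESeq2 called Rps7 besides, 16 had an unadjusted p under 0.05 (19.3%, against 12.3%), and the median log2 ratio of the list was 0.05. Of 83 nuclear genes of oxidative phosphorylation 1 was called (1.2%) and 5 had such a p, with a list median of -0.04, and that one, Cox7b2, a testis form of a cytochrome oxidase subunit, was barely above the filter, at 0.493 ± 0.152 CPM in WT and 0.175 ± 0.0331 CPM in KO-labelled libraries (adjusted p = 0.0114). It was not called in thinned libraries (adjusted p = 0.0689) or with the oculomotor score (0.0959). The 18 circadian clock genes gave 0 calls by edgeR, 3 by DESeq2 and 5 with an unadjusted p under 0.05, and the 26 sterol and fatty acid synthesis genes gave 0 calls by either tool and 4 with such a p. The 18 heat shock genes gave 0 calls by either tool and 4 with such a p, with a list median of -0.07. Their summed level was 5577, 5525, 5514 and 5556 CPM in WT and 5180, 5267, 5259 and 5482 CPM in KO-labelled libraries. The sums did not overlap, though 5482 lay close to 5514 CPM, and they are given without a test. Oligodendrocyte markers, hippocampus and cortex markers, and choroid plexus and ependyma markers gave no call by either tool, with 1 of 16, 1 of 16 and 3 of 15 members at an unadjusted p under 0.05. Habenula markers and markers of oligodendrocyte precursors and of blood and meninges gave no call by either tool either, with 4 of 14, 1 of 11 and 0 of 14 at such a p. Reticular thalamus and zona incerta markers gave 0 calls by edgeR and 2 by DESeq2, with 4 of 11 at such a p, and serotonin and dopamine neuron markers 0 and 1, with 1 of 15. Of 29 genes of presynaptic release and adhesion 1 was called (3.45%) and 3 had such a p. The call was Unc13b, a synaptic vesicle priming factor, at 28.8 ± 1.37 CPM in WT and 33.5 ± 2.43 CPM in KO-labelled libraries, with overlap (adjusted p = 0.0388). Its adjusted p was 0.11 without WT 9, 0.0833 without WT 11, 0.114 without WT 12, 0.112 without KO-labelled 14, 0.12 without KO-labelled 15 and 0.111 without KO-labelled 16.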
